A study of Mus musculus with 8 samples.

Results

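The genes described here are 46 genes of the cell cycle and of proliferation, picked by name from the 55376 genes of a count table of mouse bone marrow-derived dendritic cells. Of these, 20 were classed with entry into the cycle and DNA replication (G1/S) and 23 with G2 and mitosis. The other 3 encode inhibitors of cyclin-dependent kinases. A class is a grouping and does not mean that a gene acts in that phase only. All 46 were in the table, and all 46 were among the 14382 genes that passed the filter on low counts. The series belongs to a project on the microbiome and checkpoint blockade in multiple myeloma. Dendritic cells derived from bone marrow were incubated overnight with heat-killed P. heparinolytica (PH, 3 samples) or P. melaninogenica (PM, 3 samples), and polyadenylated RNA was sequenced. Both groups carry the sample ids 1, 3 and 4 (PH 1, PM 1 and so on). No sample without bacteria was analysed here, so every difference is between the bacteria and not between stimulated and resting cells. The labels name no mouse strain, genotype, age, bacterial dose or culture method for the dendritic cells, and do not say whether the ids are animals or cultures. The p-values therefore rest on the spread between these samples, estimated in part by pooling over genes, and this spread may be technical.

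A cell enters the cycle when D-type cyclins, induced by growth factors, activate the kinases CDK4 and CDK6. These phosphorylate the retinoblastoma protein and release E2F factors, which induce cyclin E and the replication genes, and later cyclins A and B drive CDK1 into mitosis. Inhibitors of the Cip/Kip and INK4 families hold these kinases in check. Dendritic cell precursors divide in culture with growth factors, and mature dendritic cells are known for having largely left the cycle.

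Column totals ran from 11624367 counts (PH 3) to 40233148 (PH 4). By the list of dendritic cell markers the label held for Itgax, the gene of CD11c, at 133 to 178 CPM (counts scaled to library size, with TMM factors), for Flt3 at 44.2 to 61.2 CPM and for Ccr7, a receptor of matured cells, at 3487 to 4447 CPM. Xcr1 lay between 0.154 and 0.433 CPM, and Cd209a had 0 counts in each sample, which allows at most 0.0746 to 0.258 CPM by sample, for counting error only. The summed level of the 12 dendritic cell markers was 8909 to 10998 CPM. The summed level of the 8 macrophage markers was 807 to 1251 CPM, led by Adgre1 (416 to 635 CPM) and Csf1r (381 to 628 CPM), while C1qa, C1qb and C1qc were each below 0.765 CPM. PH 3, the shallowest column, stood apart in Gm42418, a gene that overlaps ribosomal RNA sequence, with 4029 CPM against 878 to 1496 CPM in the other columns. Values without PH 3 are given where they change a call.

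Without a block on the sample id, 3 of the 46 genes fell with PM and 0 rose (edgeR's quasi-likelihood test, adjusted p of at most 0.05 over all genes tested). They were Ccnd2, Mki67 and Cdkn1a, and with 1 sample left out the count was 1 to 4 (2 without PH 3). Among all genes 1.64% were called lower and 0.702% higher by the same rule. At an unadjusted p under 0.05, 14 members were lower and 2 higher, beside 6.79% and 6.36% of all genes, and DESeq2 called 4 lower and 0 higher, beside 2.66% and 1.40%. With the sample id as a block, 18 members changed, beside 15.3% of all genes. Of these 16 fell and 2 rose, so that 34.8% of the members were called lower beside 8.27% of all genes. DESeq2 with the block called 9 members lower and 0 higher (5.26% and 3.27% of all genes), so neither rise, of Cdk4 and of Ccnb1, was called there. The median log2 fold change of the 46 members without the block was -0.06, and that of all genes was 0.01. All 3 PM samples lay below all 3 PH samples for 11 members and above them for 3, whereas such separation occurred in 9.28% and 10.1% of all genes.

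The classes had different counts. Among the G1/S genes, 11 of 20 fell and 1 rose with the block (1 fell without it), with a median log2 fold change of -0.19. Of the mitotic genes, 3 of 23 (13.0%) fell and 1 (4.35%) rose with the block, shares near those of all genes. Without it 1 fell, and their median was 0.01. Of the inhibitors, 2 of 3 fell with the block and 1 fell without it. Whether these classes differ from each other was not tested. RNA of a whole culture was measured, so fewer cells in the cycle and less of the RNA per cell cannot be told apart.

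**Figure D1:**
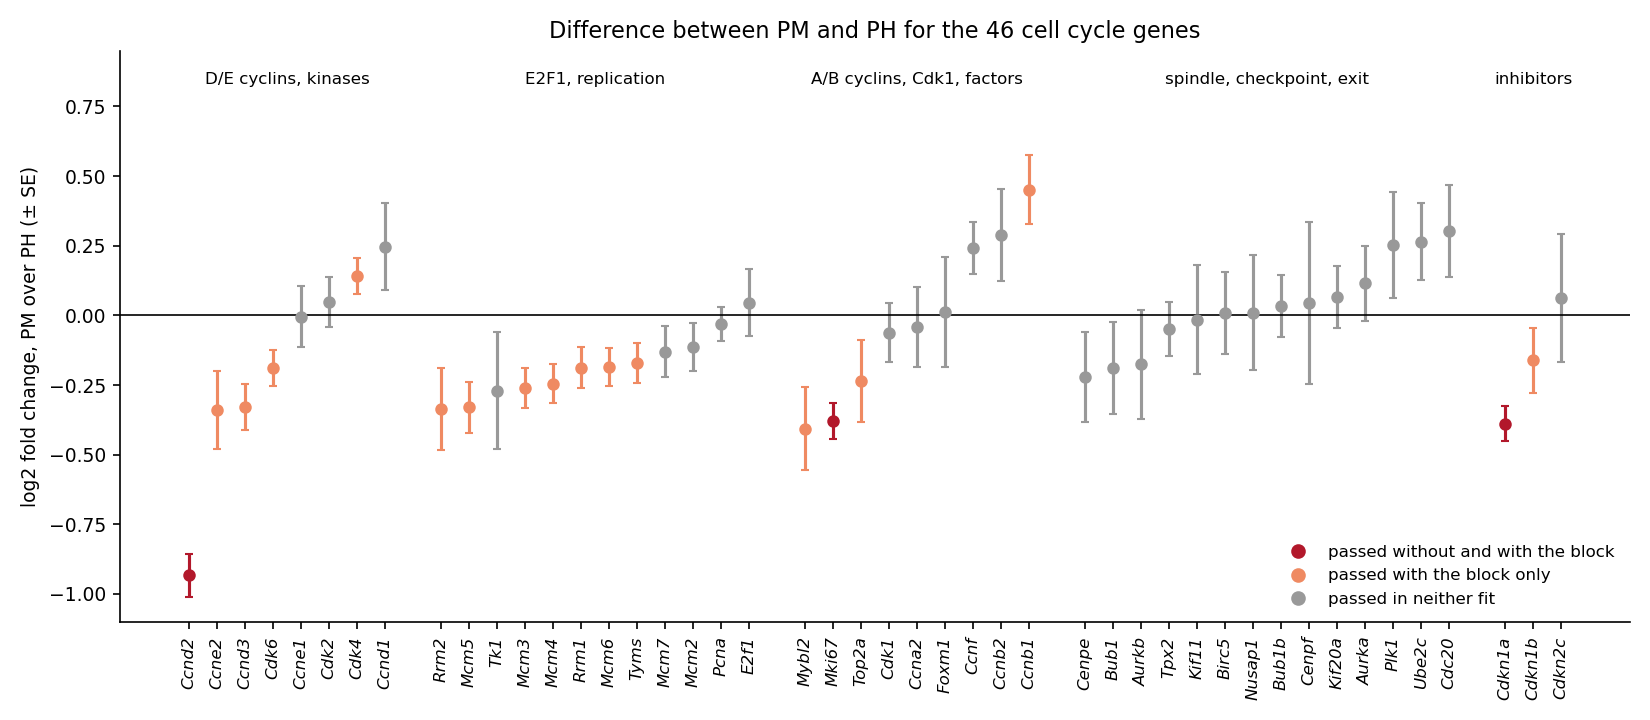
Log2 fold change of PM over PH (y axis) for each of the 46 genes, with the standard error from the fit without a block as bars, by class. Dark red points passed the threshold in both fits, orange points only with the sample id as a block and grey points in neither; Ccnd2 stands at -0.93, apart from the other members, which lie between -0.41 and 0.45.

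Ccnd2 encodes cyclin D2, a partner of CDK4 and CDK6, and was the D-type cyclin with the highest level per exon length in these cells. Its gene lies on the minus strand at chr6:127125162-127151060 (GRCm38, coordinates of the deposited table). Ccnd2 stood at 658 (PH 1), 694 (PH 3) and 679 CPM (PH 4) against 324 (PM 1), 382 (PM 3) and 357 CPM (PM 4). The groups did not overlap, and every PM sample was far below the lowest PH sample. The log2 fold change was -0.93 ± 0.08 (SE, n = 3 per group; adjusted p = 7.4e-04 by edgeR, and 3.2e-16 with the block). The drop was -1.02, -0.86 and -0.93 on the log2 scale for ids 1, 3 and 4, and the call held in each of the 6 fits that leave out 1 sample.

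Ccnd3, the gene of cyclin D3, had 60.3, 68.5 and 73.9 CPM in PH 1, 3 and 4, and 55.8, 50.6 and 55.1 CPM in PM 1, 3 and 4. Again no PM sample reached the lowest PH sample, but the gap was small for id 1. Its log2 fold change was -0.33 ± 0.08 (SE, n = 3 per group; adjusted p = 0.095 by edgeR), and with the block it fell by 0.33 on the log2 scale (adjusted p = 1.5e-04). Without PH 1 the unblocked test called it (adjusted p = 0.038). Ccnd3 shares 14.8% of its exon length with other genes.

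Ccnd1, the gene of cyclin D1, was the low member of the D-type trio. It had 6.36, 7.94 and 9.13 CPM with PH and 9.65, 8.02 and 10.3 CPM with PM (ids 1, 3 and 4), so the groups overlapped. Its log2 fold change was 0.25 ± 0.16 (SE, n = 3 per group; adjusted p = 0.57 by edgeR, 0.11 with the block). Ccnd1 shares 21.9% of its exon length with another gene. Per exon length, Ccnd2 had 101 ± 2.71 RPKM with PH and 52.8 ± 4.28 RPKM with PM (SD, n = 3), while Ccnd3 had 27.6 ± 2.79 and 22.0 ± 1.16 RPKM and Ccnd1 2.09 ± 0.371 and 2.49 ± 0.312 RPKM.

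The kinases that the D-type cyclins activate moved in opposite directions with the block. Cdk6 was at 82.8, 78.8 and 84.1 CPM in PH 1, 3 and 4 and at 66.5, 74.5 and 74.7 CPM in PM 1, 3 and 4, with no overlap (log2 fold change -0.19 ± 0.05 with the block, adjusted p = 0.013 by edgeR; 0.24 without). Cdk4 was at 103, 98.0 and 98.3 CPM with PH and at 118, 105 and 107 CPM with PM, again with no overlap (0.14 ± 0.05 with the block, adjusted p = 0.048; 0.40 without). Both differences were small. The Cdk6 call was lost without id 1 and without id 4. The Cdk4 call was lost whichever id was left out of the blocked fit, and 31.2% of its exon length overlaps Tspan31, so its counts are uncertain where the strand setting is not known.

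Cyclin E, with its kinase CDK2, acts after the D-type cyclins. Ccne2, the gene of cyclin E2, had 7.96, 9.33 and 9.58 CPM with PH and 5.92, 7.06 and 8.08 CPM with PM (log2 fold change -0.34 ± 0.10 with the block, adjusted p = 0.022 by edgeR; 0.34 without). This call too was lost whichever id was left out, and 10.5% of the exon length of Ccne2 overlaps Ints8. The groups overlapped, since PM 4 was above PH 1, although PM was lower for each id. Ccne1 (log2 fold change -0.0045) and Cdk2 (0.05) passed neither test. The summed level of the 8 genes of D and E cyclins and their kinases was 972, 1024 and 1013 CPM with PH and 638, 689 and 676 CPM with PM, most of it from Ccnd2. Its ratio of PM over PH was 0.666.

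Further down the G1/S path, the 12 genes of E2F1 and replication had 0 calls without the block and 7 with it, all lower. At an unadjusted p under 0.05 without the block, 7 were lower and 0 higher, and DESeq2 called 0 without and 4 with the block. The fold change was below 0 for 11 of the 12. E2f1 itself, the gene of an activating E2F factor, was the exception with a log2 fold change of 0.05 ± 0.12 (SE, n = 3 per group; adjusted p = 0.92 by edgeR). It had 37.1, 32.8 and 35.5 CPM with PH and 44.3, 32.0 and 33.3 CPM with PM, so PM 1 was the high sample and the other 5 were close together.

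Mcm2 to Mcm7 encode the 6 subunits of the MCM helicase, which is loaded onto replication origins in G1 and unwinds DNA in S phase. The promoter of Mcm5 is shown since Mcm5 had the largest fold change of the 6 and its promoter held a pair of E2F words. It is the run of 250 bases before the most upstream start in RefSeq (chr8:75109259-75109508 of GRCm38.p6, plus strand), and capitals mark E2F words and the CCAAT box.
Mcm5: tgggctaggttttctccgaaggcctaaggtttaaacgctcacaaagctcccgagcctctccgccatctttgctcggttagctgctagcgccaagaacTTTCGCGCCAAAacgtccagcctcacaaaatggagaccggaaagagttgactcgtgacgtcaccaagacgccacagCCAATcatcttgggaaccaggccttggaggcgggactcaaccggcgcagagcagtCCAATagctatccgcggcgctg

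The words searched on both strands were TTTCCCGC, TTTCGCGC, TTTGCCGC and TTTGGCGC for E2F, TTTGAA for the cell cycle homology region (CHR), which the DREAM and MuvB complexes are known to bind, and CCAAT for the NF-Y factor. In Mcm5 the pair of E2F words overlaps, one on each strand. RefSeq promoters were found for 37 of the 46 genes. An E2F word was in 4 of the 16 G1/S promoters, 1 of the 18 mitotic ones and 0 of the 3 of inhibitors, and in 1.92% of all 27025 promoters. CHR was in 1 of 16, 8 of 18 and 0 of 3, and in 16.3% of all. The CCAAT box was in 9 of 16, 15 of 18 and 1 of 3, and in 34.5% of all. A match describes the letters and says nothing of binding in these cells.

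Mcm5 had 41.9, 52.2 and 48.4 CPM in PH 1, 3 and 4 and 38.6, 34.8 and 39.6 CPM in PM 1, 3 and 4. The groups did not overlap, and the widest gap was in id 3. Its log2 fold change was -0.32 ± 0.07 with the block (adjusted p = 9.2e-04 by edgeR; 0.13 without), and without id 3 the blocked call was lost (adjusted p = 0.057). Mcm3 had 63.4, 75.6 and 70.9 CPM with PH and 56.7, 58.8 and 59.2 CPM with PM, with no overlap (-0.26 ± 0.06 with the block, adjusted p = 7.7e-04; 0.13 without). This call stayed whichever id was left out.

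Mcm4 had 40.9, 45.3 and 42.0 CPM with PH and 34.0, 36.2 and 37.6 CPM with PM (log2 fold change -0.24 ± 0.06 with the block, adjusted p = 0.0040 by edgeR; 0.14 without). Mcm6 had 76.0, 85.1 and 84.4 CPM with PH and 68.2, 71.7 and 75.6 CPM with PM (-0.18 ± 0.05 with the block, adjusted p = 0.012; 0.27 without). PM was below PH without overlap for both helicase genes, but each call was lost on leaving out id 3, and that of Mcm6 also without id 4. Mcm2 passed neither test, with 27.0, 31.0 and 31.2 CPM against 27.2, 25.5 and 29.6 CPM (-0.11 ± 0.09 without the block, adjusted p = 0.66; 0.33 with it). Mcm7 did not either (-0.13 ± 0.09, adjusted p = 0.62; 0.23 with the block). For id 1, these 2 subunits were level between PM and PH, with log2 ratios of 0.01 and 0.02. Mcm7 shares 13.0% of its exon length with other genes.

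Ribonucleotide reductase, made of the subunits encoded by Rrm1 and Rrm2, supplies deoxynucleotides. Rrm2 had 25.8, 34.2 and 35.4 CPM with PH and 20.9, 25.2 and 29.1 CPM with PM (log2 fold change -0.34 ± 0.07 with the block, adjusted p = 2.7e-04 by edgeR; 0.38 without). The groups overlapped because id 1 was low in both, while within each id PM was lower, by 0.28 to 0.44 on the log2 scale. Rrm1 had 59.4, 67.7 and 66.2 CPM against 52.8, 56.0 and 60.6 CPM (-0.19 ± 0.06 with the block, adjusted p = 0.018; 0.32 without). Tyms, the gene of thymidylate synthase, had 40.3, 46.1 and 42.6 CPM against 36.6, 40 and 37.7 CPM (-0.17 ± 0.06 with the block, adjusted p = 0.041; 0.36 without). The calls of Rrm1 and Tyms were lost without id 3 and without id 4, and that of Rrm2 was not lost without any id.

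Pcna, the gene of the sliding clamp of DNA polymerases, had 109, 108 and 105 CPM with PH and 113, 102 and 101 CPM with PM, which overlapped. Its log2 fold change was -0.03 ± 0.06 (SE, n = 3 per group; adjusted p = 0.89 by edgeR, 0.75 with the block). Tk1, the gene of the salvage enzyme thymidine kinase, was at -0.27 ± 0.21 (adjusted p = 0.66, 0.13 with the block). The 12 genes summed to 560, 631 and 610 CPM with PH and 532, 523 and 548 CPM with PM, a ratio of 0.890. All 20 G1/S genes summed to a ratio of 0.750, and to 0.915 when Ccnd2 was left out, an alternative chosen after seeing the data.

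**Figure D2:**
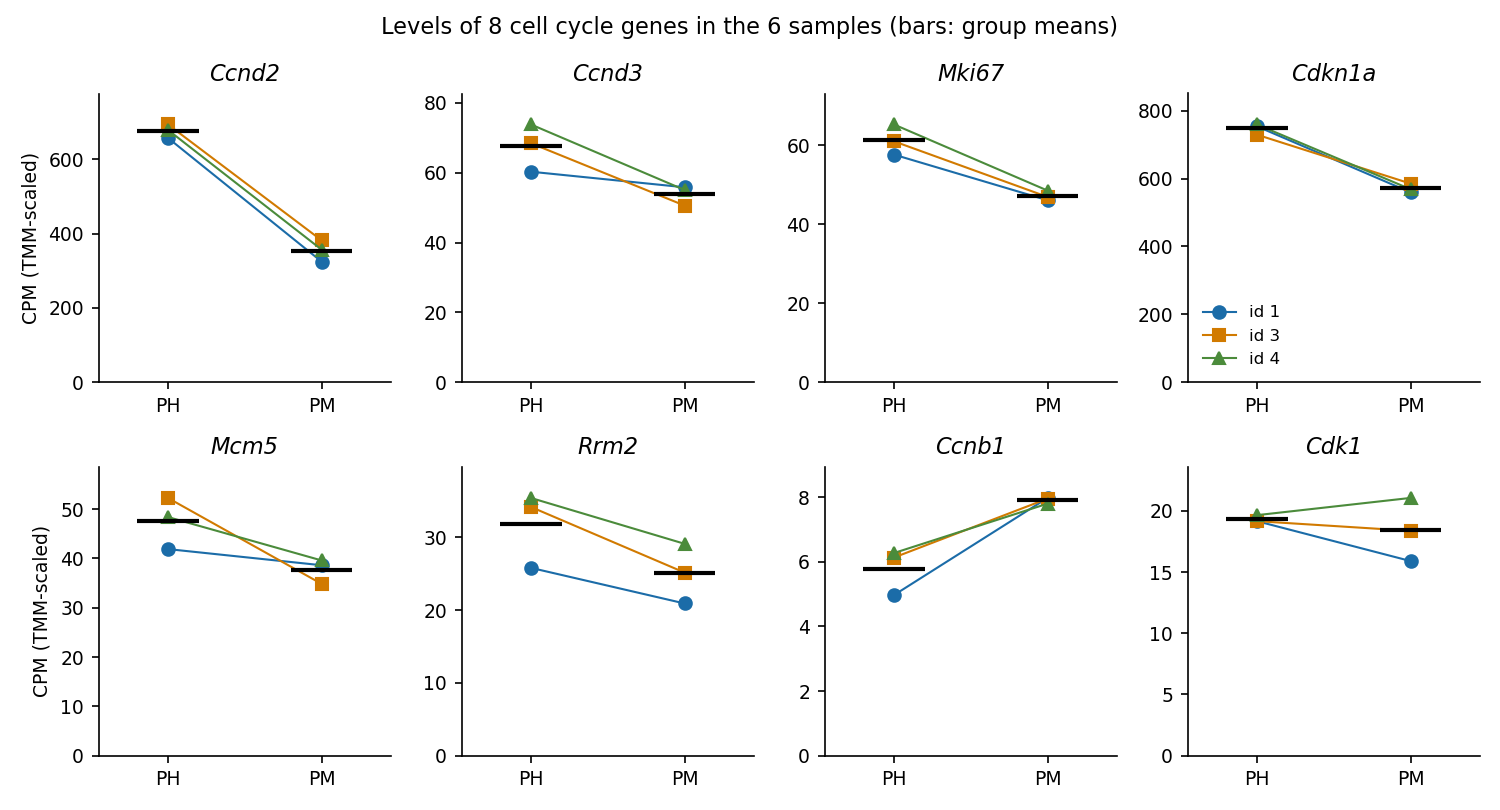
TMM-scaled CPM (y axis, from 0) of 8 of the genes in the 3 PH and 3 PM samples, with lines joining samples of the same id and horizontal bars at the group means. PM lies below PH without overlap for Ccnd2, Ccnd3, Mki67, Cdkn1a and Mcm5 and above it for Ccnb1, while Rrm2 falls along each line although its groups overlap.

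Mki67 encodes Ki-67, a chromosome coat protein that is widely used as a marker of cycling cells. Its gene lies on the minus strand at chr7:135689784-135716361 (GRCm38). Mki67 had 57.7, 61.1 and 65.3 CPM in PH 1, 3 and 4 and 46.1, 46.9 and 48.6 CPM in PM 1, 3 and 4. The groups did not overlap, and each held together closely. The log2 fold change was -0.38 ± 0.06 (SE, n = 3 per group; adjusted p = 0.019 by edgeR, 4.2e-06 with the block). Leaving out 1 sample ended the unblocked call for PH 3 (adjusted p = 0.070), PH 4 (0.12), PM 3 (0.090) and PM 4 (0.079), whereas the blocked call stayed whichever id was left out.

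Mki67, the mitotic member called in both fits, and Cdk1, the central mitotic kinase, which passed neither test, both have CHR words and CCAAT boxes in the 250 bases before their RefSeq starts, which is why they are printed together. Capitals mark E2F words, CHR and the CCAAT box (ATTGG is its reverse). The Mki67 window is chr7:135716380-135716629 and the Cdk1 window chr10:69352913-69353162, both of GRCm38.p6 on the minus strand and written 5′ to 3′ along the gene.
Mki67: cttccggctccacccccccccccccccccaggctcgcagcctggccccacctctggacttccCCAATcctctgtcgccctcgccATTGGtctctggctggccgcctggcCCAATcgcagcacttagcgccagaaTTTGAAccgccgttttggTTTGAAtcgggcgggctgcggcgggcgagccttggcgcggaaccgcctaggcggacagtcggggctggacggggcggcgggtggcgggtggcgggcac
Cdk1: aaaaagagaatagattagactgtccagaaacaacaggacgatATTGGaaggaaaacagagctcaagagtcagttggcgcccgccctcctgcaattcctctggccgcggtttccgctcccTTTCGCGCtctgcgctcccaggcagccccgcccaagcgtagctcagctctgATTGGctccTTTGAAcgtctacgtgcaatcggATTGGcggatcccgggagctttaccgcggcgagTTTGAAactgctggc

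The Mki67 window held 2 CHR words and 3 CCAAT boxes and no E2F word searched, and the Cdk1 window 1 E2F word, 2 CHR words and 3 CCAAT boxes. Cdk1 had 19.2, 19.2 and 19.7 CPM with PH and 15.9, 18.4 and 21.1 CPM with PM. Its PM samples lay on both sides of the PH samples, and its log2 fold change was -0.06 ± 0.11 (SE, n = 3 per group; adjusted p = 0.86 by edgeR, 0.71 with the block).

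Top2a encodes topoisomerase II alpha, which untangles sister chromatids. It had 45.7, 58.8 and 63.3 CPM with PH and 38.6, 48.4 and 55.0 CPM with PM. The groups overlapped, because the ids were further apart than the treatments, but PM was lower in all 3 pairs by 0.20 to 0.28 on the log2 scale. The log2 fold change was -0.24 ± 0.06 with the block (adjusted p = 0.0026 by edgeR; 0.57 without). Mybl2, the gene of B-Myb, a factor that joins MuvB on mitotic promoters, had 8.33, 10.2 and 10.2 CPM with PH and 5.73, 8.16 and 7.52 CPM with PM, with no overlap (-0.43 ± 0.10 with the block, adjusted p = 0.0027; 0.28 without). Both blocked calls stayed whichever id was left out.

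Ccnb1, the gene of cyclin B1, was the mitotic gene that rose with the block by edgeR, though not by DESeq2. It had 4.97, 6.13 and 6.27 CPM in PH 1, 3 and 4 and 7.98, 7.96 and 7.80 CPM in PM 1, 3 and 4, so all PM samples were above all PH samples. The log2 fold change was 0.45 ± 0.12 (SE, n = 3 per group; adjusted p = 0.12 by edgeR), and 0.44 ± 0.11 with the block (adjusted p = 0.0058). Without id 1 the blocked call was lost (adjusted p = 0.077). Ccnf, the gene of cyclin F, a subunit of a ubiquitin ligase, was also higher in every PM sample (9.24 to 10.6 CPM with PH, 11.7 to 12.5 CPM with PM) but passed neither test (adjusted p = 0.30, 0.094 with the block). Ccnb2 (log2 fold change 0.29), Ccna2 (-0.04) and Foxm1 (0.01, and -0.0089 with the block), the genes of cyclins B2 and A2 and of the factor that induces many G2 genes, passed neither test. Of the exon length of Ccna2, 10.4% overlaps Exosc9.

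None of the 14 genes of the spindle, the checkpoint and mitotic exit passed the test with or without the block. At an unadjusted p under 0.05, 0 of them differed without the block and 3 were higher with it, and DESeq2 called 0. Their log2 fold changes ran from -0.22 (Cenpe, the gene of a kinetochore motor) to 0.30 (Cdc20, the gene of an activator of the anaphase-promoting complex), with a median of 0.02. Between these lay Plk1 (0.25), the gene of a mitotic kinase, Ube2c (0.27), of a ubiquitin-conjugating enzyme, Aurkb (-0.18), of aurora kinase B, and Bub1 (-0.19), of a checkpoint kinase. The other 8, Aurka, Birc5, Bub1b, Kif11, Kif20a, Cenpf, Nusap1 and Tpx2, were between -0.05 and 0.12. Kif20a shares 31.8% of its exon length with Cdc23, and Ube2c shares 22.8% with Tnnc2. The summed level of the 14 genes was 112, 145 and 144 CPM with PH and 116, 133 and 152 CPM with PM, a ratio of 1.00. The 9 genes of A and B cyclins, Cdk1 and factors summed to a ratio of 0.886. In both sums id 1 was the low pair.

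**Figure D3:**
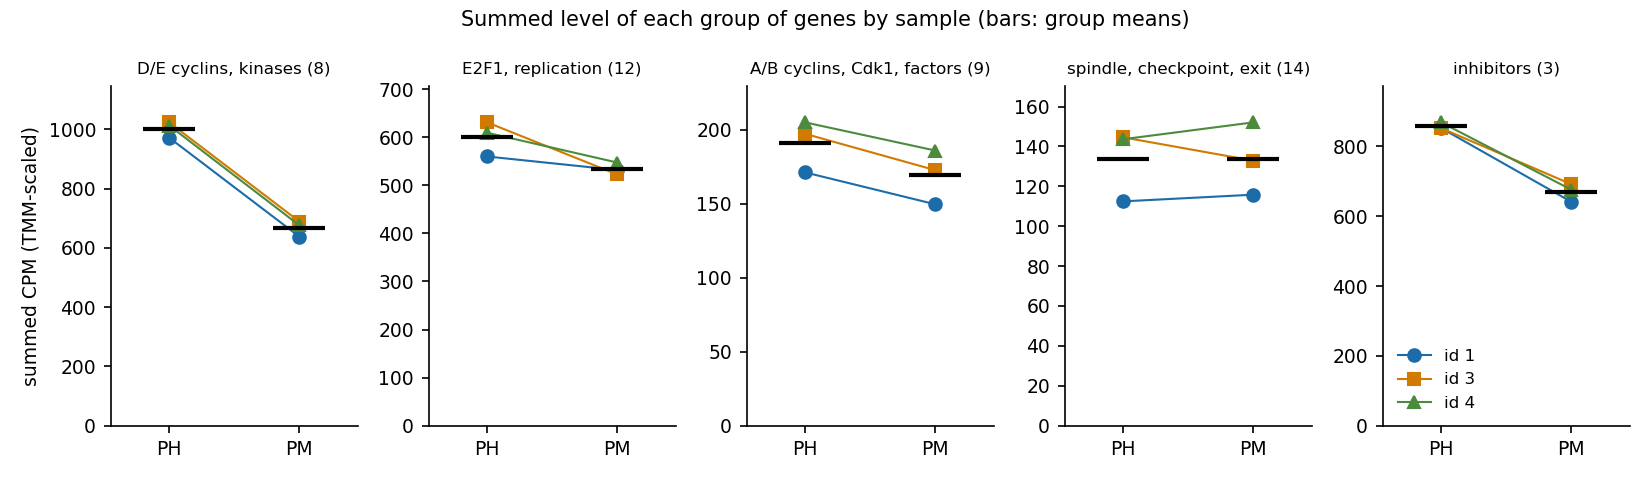
Summed TMM-scaled CPM (y axis, from 0) of the 5 groups of genes in each PH and PM sample. The PM samples lie below the PH samples without overlap in the sums of D and E cyclins and their kinases, of E2F1 and replication and of the inhibitors, while the sums of both mitotic groups overlap.

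Cdkn1a encodes the Cip/Kip inhibitor that p53 induces, and it had the highest level per exon length of all 46 genes. It lies on the plus strand at chr17:29090979-29100727 (GRCm38). Cdkn1a had 754, 729 and 759 CPM in PH 1, 3 and 4 and 559, 585 and 568 CPM in PM 1, 3 and 4. No PM sample came near the PH samples. The log2 fold change was -0.39 ± 0.06 (SE, n = 3 per group; adjusted p = 0.016 by edgeR, 1.2e-07 with the block), and the pairs fell by 0.43, 0.32 and 0.42 on the log2 scale (ids 1, 3 and 4). Leaving out PH 4 (adjusted p = 0.12), PM 3 (0.070) or PM 4 (0.11) ended the unblocked call, and leaving out an id did not end the blocked one. Some 10% of its exon length overlaps 1700023B13Rik. Per exon length, Cdkn1a had 275 ± 5.90 RPKM with PH and 210 ± 4.79 RPKM with PM (SD, n = 3). The lowest of the 46, Cenpf, the gene of a kinetochore protein, had a mean of 0.303 RPKM over all samples.

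Cdkn1b, the gene of another Cip/Kip inhibitor, had 96.5, 121 and 106 CPM with PH and 80.1, 103 and 105 CPM with PM. The groups overlapped, and the pair with id 4 was nearly level. Its log2 fold change was -0.16 ± 0.05 with the block (adjusted p = 0.030 by edgeR; 0.63 without), and without id 1 or id 3 this call was lost. Cdkn2c, the gene of an INK4 inhibitor of CDK4 and CDK6, was low, with 2.42, 2.59 and 3.36 CPM against 2.10, 3.56 and 3.13 CPM, and did not pass (0.06 ± 0.23, adjusted p = 0.94; 0.97 with the block). So a promoting gene, Ccnd2, and an inhibiting one, Cdkn1a, were both lower with PM, and they were the members with the highest levels per exon length in PH. In PM the level of Ccnd2 (52.8 RPKM) was below those of Pcna (69.4 RPKM) and Cdk4 (53.6 RPKM).

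The sample ids differed too. By a test between ids in the fit that holds both id and treatment, 13 of the 46 genes differed, beside 18.9% of all genes. Of these, 9 were of the mitotic class (Ccna2, Foxm1, Top2a, Aurkb, Plk1, Bub1, Kif11, Cenpf and Nusap1). The G1/S class had 3 (E2f1, Rrm2 and Tk1), and 1 was an inhibitor (Cdkn1b). Of the 13, 12 were lowest in id 1 and E2f1 was highest there. Over all members, the mean of the PH and PM samples was lowest in id 1 for 41 of 46 genes. How many of all genes were lowest in id 1 was not computed, so the counts of 12 and 41 have no background beside them. Kif11, the gene of a spindle motor, had 10.1 CPM in both samples of id 1 and 12 to 16.1 CPM in the other 4 (adjusted p = 2.4e-04 between ids), and Nusap1, of a spindle protein, had 8.22 and 8.70 CPM in id 1 against 12.5 to 13.4 CPM (adjusted p = 8.3e-05). By the same test without id 1, 0 members and 525 of 14958 genes tested differed between ids 3 and 4. At so low a share of all genes, the absence of members is no result about them.

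The markers moved with id 1 as well. The summed macrophage markers were at 1210 and 1251 CPM in PH 1 and PM 1 and at 807 to 917 CPM in the other 4 samples, and the summed dendritic cell markers were at 9123 and 8909 CPM against 9951 to 10998 CPM. The part of these markers in the low mitotic levels of id 1 was not tested.

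**Figure D4:**
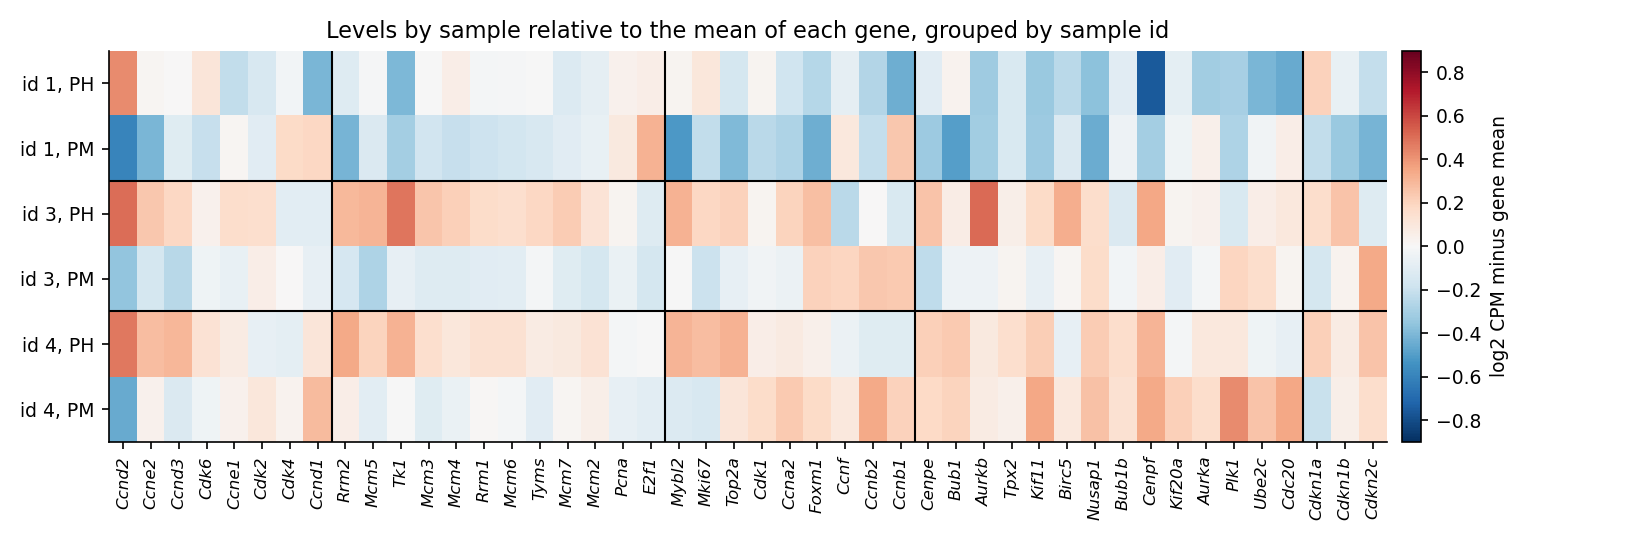
Log2 CPM of each of the 46 genes minus its mean over the 6 samples (colour, from -0.9 to 0.9), with samples as rows ordered by id and genes as columns by class. Both rows of id 1 are low for most mitotic genes, whereas Ccnd2 and Cdkn1a alternate with the treatment.

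Other genes of the pathway were read from 7 lists with 176 tested genes, of which 1 rose and 1 fell without the block, and 11 rose and 18 fell with it. These are 1.14% and 16.5% of the 176, near or below the 2.34% and 15.3% of all genes, so the 176 pooled over lists and directions were at background. The single lists differed. With the block, 31.6% of the other G1/S and replication genes were called lower, beside 8.27% of all genes. In that list 28.9% had all PM samples below all PH samples, beside 9.28% of all genes. In the other lists the share called lower with the block ran from 0% to 17.6%. Of the 29 called with the block, 10 held whichever id was left out. Among 38 other G1/S and replication genes, 0 changed without the block (11 lower and 0 higher at an unadjusted p under 0.05; 2 lower by DESeq2) and 12 fell with it, none rising, with a median log2 fold change of -0.19. They included Orc1 (-0.67 ± 0.17, adjusted p = 0.0070 by edgeR with the block; -0.41 and 0.17 without id 3), of the origin recognition complex, and Cdc6 (-0.59 ± 0.12, adjusted p = 5.4e-04), which loads the helicase. They also included Uhrf1 (-0.41 ± 0.06, adjusted p = 1.2e-05), which maintains DNA methylation. Uhrf1 had 41.5, 56.6 and 51.3 CPM with PH and 33.1, 36.8 and 41.5 CPM with PM, so PM 4 was level with PH 1 and the other PM samples were below all PH samples.

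Among 54 other G2/M and mitotic genes, 0 changed without the block (1 lower and 1 higher at an unadjusted p under 0.05; 0 by DESeq2), and with it 2 rose and 1 fell. Cdc25b, the gene of a phosphatase that activates CDK1, rose (0.47 ± 0.11, adjusted p = 0.0018 by edgeR with the block), as did Cenpa, of the centromeric histone (0.23 ± 0.06, adjusted p = 0.0072), and Mad2l1, of the spindle checkpoint, fell (-0.21 ± 0.07, adjusted p = 0.047). The Mad2l1 call was lost whichever id was left out (adjusted p = 0.064 to 0.25) and the Cenpa call without id 4 (0.11), and DESeq2 with the block called 0 of the 54. In neither fit did the 16 genes of E2F, pocket protein and DREAM factors or the 20 genes of the APC/C and SCF ligases give a call. DESeq2 gave 0 calls in either of these lists, and at an unadjusted p under 0.05 without the block 0 genes of each differed. Of the 11 genes of the Myc network, 0 changed without the block and 2 rose with it, Mycl (0.67 ± 0.21, adjusted p = 0.026) and Mnt (0.17 ± 0.05, adjusted p = 0.022). Mycl was lost without id 1 or id 4 (adjusted p up to 0.13) and Mnt without id 1 or id 3 (up to 0.21). DESeq2 called 0 of the 11 with or without the block, and 2 were higher at an unadjusted p under 0.05.

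Among 17 other inhibitors and antiproliferative genes, 1 rose and 0 fell without the block, and 4 rose and 3 fell with it. At an unadjusted p under 0.05 without the block, 3 were higher and 2 lower. DESeq2 called 1 higher and 2 lower without the block, and 2 higher and 2 lower with it. The PM samples lay below all PH samples for 29.4% of this list and above them for 17.6%, beside 9.28% and 10.1% of all genes. The gene that rose in both edgeR fits was Cdkn1c, the third Cip/Kip inhibitor, at a low level: 0.698, 0.604 and 0.572 CPM (17, 7 and 23 counts) in PH 1, 3 and 4 and 2.05, 2.46 and 2.34 CPM (43, 74 and 91 counts) in PM 1, 3 and 4. All PM samples were far above all PH samples. The log2 fold change was 1.88 ± 0.22 (SE, n = 3 per group; adjusted p = 0.0031 by edgeR, 8.0e-07 with the block), and the call held in each of the 6 fits that leave out 1 sample. Cdkn1a and Cdkn1c, of the same inhibitor family, thus moved in opposite directions. Of the genes called lower with the block by edgeR, Gadd45g and Ccng2 stayed so whichever id was left out, and Ccng1 did not. Of those called higher, Btg1, Cdkn3 and Wee1 were lost without id 3 and without id 4.

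In a list of 20 genes, the p53 gene itself and genes known as p53 targets (without Cdkn1a), 1 fell and 0 rose without the block, and 2 fell and 3 rose with it. Eda2r, a receptor of the TNF receptor family, had 3.78, 3.97 and 3.93 CPM with PH and 2.15, 2.10 and 2.16 CPM with PM (-0.86 ± 0.15, n = 3 per group; adjusted p = 0.018 by edgeR, 1.9e-04 with the block). The groups were wide apart and tight, yet the unblocked call was lost without PH 3, PH 4, PM 3 or PM 4. With the block the other gene that fell was Ddit4 (-0.30 ± 0.05, adjusted p = 3.8e-05), and Pmaip1, Plk3 and Perp rose by 0.20 to 0.26 on the log2 scale. The calls of these 3 were lost without id 3 and without id 4 (adjusted p up to 0.22), and DESeq2 with the block called 1 gene of the list higher. The list had a median log2 fold change of -0.03.

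Markers of other cells of such cultures were read as lists. The 8 stem and progenitor cell markers summed to 176, 181 and 177 CPM in PH 1, 3 and 4. In PM 1, 3 and 4 they summed to 159, 158 and 169 CPM, without overlap. Of the 8, 5 had a log2 fold change below 0 and 3 above it (up to 0.29), with a median of -0.09. In this list 2 genes fell with the block, Ly6a (-1.33 ± 0.24, adjusted p = 0.024 by edgeR without the block, lost without PH 1, PH 4, PM 3 or PM 4 with p up to 0.12; 3.1e-13 with the block) and Cd34 (-0.42 ± 0.08, adjusted p = 3.3e-04 with it). The 12 markers of neutrophils and myeloid precursors summed to 492 to 616 CPM with PH and to 384 to 543 CPM with PM. With the block 3 fell, S100a8, S100a9 and Camp, while over the list 6 fold changes were below 0 and 6 above it. Of the 10 T and NK cell markers, 1 fell with the block, Gzma (-1.06 ± 0.16, adjusted p = 5.3e-06), the list summing to 23.7 to 37.6 CPM with PH and 19.2 to 33.2 CPM with PM. Among the 7 stromal markers Pdgfrb fell (-0.70, adjusted p = 0.0085 without the block, 0.062 without PH 4). Of the 8 markers of megakaryocytes, mast cells and basophils, Ppbp rose with the block (0.39 ± 0.07, adjusted p = 1.1e-04), which held whichever id was left out. Of the 12 dendritic cell markers edgeR called 0 without the block (1 lower and 1 higher at an unadjusted p under 0.05; 1 lower by DESeq2). With it Irf4 fell (-0.28 ± 0.05, adjusted p = 5.8e-05), Irf8 fell (-0.14 ± 0.05, adjusted p = 0.041, lost without id 3 or id 4) and Clec9a rose at a low level (1.29 ± 0.32, adjusted p = 0.0041, lost without id 1). The erythroid and B lineage lists gave 0 calls with edgeR or DESeq2 in either fit, and 0 genes at an unadjusted p under 0.05 without the block. The part of these cells in the differences of the cell cycle genes was not tested.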

How the data were processed

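Polyadenylated RNA of 8 libraries was sequenced, 4 of PH and 4 of PM. The authors deposited whole-number read counts per gene, without normalization, in 6 columns with 1 column for each treatment and sample id. The names 3PH and 1PM each match 2 libraries (2 runs), and the labels do not say if those columns hold 1 run or their sum. A column counted as 1 sample. The build GRCm38 and the tools STAR 2.5.3a, featureCounts 1.6.4 and Trimmomatic are named per the submitters' processing notes, with no strand setting. The exon lengths that the table holds gave RPKM.

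PM was compared with PH by edgeR 4.0.16 (R 4.3.3; TMM, filterByExpr with a minimum count of 10, robust quasi-likelihood fit), which left 14382 genes, with p-values adjusted over all of them by the Benjamini-Hochberg method at 0.05. The standard error was derived from the F value. A check on simulated data required only that fitted fold changes correlate with the simulated ones, and set no bound on false calls. All column pairs differed by more than sampling noise. Log2 ratios of pairs used a prior count of 2.

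Deviations from the treatment means correlated between same-id samples over all genes (0.44 for id 1, 0.32 for id 3, 0.24 for id 4; other pairs -0.35 to 0.07), and over the 46 members by 0.48, 0.066 and 0.49 (other pairs -0.58 to 0.35, of which PH 3 with PM 4 and PH 4 with PM 3 were above id 3's own). By the values over all genes, the samples were treated as paired by id, on the data and not the labels. Blocked values stand beside results they change. The blocked fits have few samples for each coefficient, fewest with 1 id left out, so their p-values lean on spread pooled over genes. With 1 id left out they still called 1529 to 2145 genes, so a call that stays there is a weak check. The members and lists were chosen with earlier results of these data known. Values in every sample are given for each member past the threshold in either fit and for 13 canonical genes whatever their test, and from each further list for up to 4 genes with the largest change, of which some are not reported here. Promoters come from RefSeq (GRCm38.p6). Alternatives were other scalings (RLE, upper quartile, total count), other filters, DESeq2 1.42.0, the block and leaving out samples.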

Additional observations from a re-analysis of the deposited data

How the results depend on the processing

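With the id as replicate block, genes past the threshold went from 337 to 2197, members from 3 to 18, G1/S genes from 1 to 12, mitotic genes from 1 to 4, inhibitors from 1 to 2 and genes of the further pathway lists from 2 to 29. DESeq2 with the replicate block gave 1227 genes, 9 members, 6 G1/S genes, 2 mitotic genes and 11 pathway genes. DESeq2 without it gave 584 genes, 2 G1/S genes and 6 pathway genes, and no low-count filter gave 846 genes, 6 members, 4 G1/S genes and 9 pathway genes. The cause of these shifts was not tested. Other scalings gave 321 to 339 genes and moved the median of all genes by at most 0.03 on the log2 scale. Leaving out 1 sample gave 142 to 417 genes, 1 to 4 members, 1 to 2 G1/S genes, 0 to 1 mitotic genes, 0 to 1 inhibitors and 1 to 3 pathway genes. In the blocked fit, leaving out 1 id gave 11 to 16 members (11 without id 3), 5 to 11 G1/S genes (5 without id 3), 1 to 2 inhibitors and 14 to 25 pathway genes, and 8 of the 18 members were called in all 3 such fits. For differences between ids these fits gave 525 to 2689 genes, 0 to 14 members, 0 to 4 G1/S genes, 0 to 10 mitotic genes and 0 to 1 inhibitors, the lowest without id 1. The summed ratio of G1/S genes was 0.733 to 0.762 with 1 sample left out (0.915 without Ccnd2), and that of mitotic genes 0.878 to 0.991.

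Several uncalled log2 fold changes near 0 changed sign. With the block, Foxm1 was -0.0089 and Nusap1 -0.0073. Ccne1 was 0.0037 with upper-quartile and 0.0195 with total-count scaling, and Kif11 was 0.0108 with total-count scaling. With DESeq2, Birc5 was -0.0039, Foxm1 -0.0051 and Nusap1 -0.0051, and with its block -0.0058, -0.033 and -0.018. With 1 sample left out, sign changes were within -0.015 to 0.21 for Aurka, -0.36 to 0.0052 for Aurkb, -0.11 to 0.15 for Birc5, -0.027 to 0.14 for Bub1b, -0.19 to 0.061 for Ccna2, -0.12 to 0.054 for Ccne1, -0.17 to 0.021 for Cdk1, -0.017 to 0.13 for Cdk2, -0.090 to 0.25 for Cdkn2c, -0.25 to 0.26 for Cenpf, -0.12 to 0.13 for E2f1, -0.12 to 0.17 for Foxm1, -0.23 to 0.11 for Kif11, -0.041 to 0.13 for Kif20a, -0.17 to 0.18 for Nusap1 and -0.14 to 0.027 for Tpx2. The depth of PH 3 limits genes at a few CPM, such as Cdkn2c and Cenpf.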
